A study of Mus musculus with 12 samples.

Results

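Transcript levels of 10 immune checkpoint receptors and ligands were examined in lung tumours of a mouse model of small cell lung cancer, treated with a histone deacetylase inhibitor, an antibody against PD-1, both agents or neither. The genes were chosen by symbol from the table of raw read counts per gene: Pdcd1, Cd274, Pdcd1lg2, Ctla4, Cd80, Cd86, Tigit, Pvr, Lag3 and Havcr2. All 10 of them were found among its 22738 gene rows, and 10 of 10 were among the 17426 genes that passed the filter on low counts. The 12 libraries formed 4 groups of 3. The combination group received entinostat, which inhibits class I histone deacetylases, by mouth at 15 mg/kg daily for 28 days together with anti-PD-1 antibody at 10 mg/kg by intraperitoneal injection over 4 weeks. The entinostat group and the anti-PD-1 group received these agents alone. The libraries of the control group are labelled only as control. The protocol names methylcellulose, the vehicle of entinostat, and an isotype antibody as control treatments without saying which of them these mice received.

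All groups shared the RPM genotype, with floxed Rb1 and p53 alleles and the Myc T58A allele behind a lox-stop-lox cassette. Recombination was induced by an adenovirus, Ad5CGRP-Cre, instilled into the trachea, at 8 weeks of age in the cohort for which an age is stated. Its Cre is expressed from a neuroendocrine promoter, so other cells of the tumour keep unrecombined alleles. RNA came from dissected pieces of frozen tumour, and each library holds tumour cells together with leukocytes, stroma and remaining lung. Whether each library came from a separate mouse is not stated, so p-values measure only the spread between these samples. Total counts per library ranged from 31295987 to 54001886.

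Checkpoint receptors are surface proteins of T cells and NK cells that dampen activation when they bind ligands on tumour cells or on antigen-presenting cells. PD-1 binds PD-L1 and PD-L2. CTLA-4 competes with the activating receptor CD28 for CD80 and CD86. TIGIT competes with the activating receptor CD226 for the poliovirus receptor, PVR, a nectin-like adhesion protein of epithelial, myeloid and tumour cells. LAG-3 binds MHC class II among other ligands, and TIM-3, encoded by Havcr2, marks exhausted T cells and is also present on myeloid cells. Antibodies against several of these proteins are used or tested in small cell lung cancer, a tumour type with few infiltrating T cells in most cases.

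All 10 genes were low in these tumours. Levels are given as CPM, library-size-scaled counts (with TMM factors), and between genes as CPM per kilobase of exon. Over the 12 libraries Lag3 averaged 1.29 ± 0.39, Cd274 1.17 ± 0.38, Cd86 0.97 ± 0.52, Havcr2 0.67 ± 0.27 and Pvr 0.56 ± 0.38 CPM per kilobase (SD, n = 12). Tigit averaged 0.36 ± 0.24, Ctla4 0.36 ± 0.48, Pdcd1 0.20 ± 0.16, Pdcd1lg2 0.17 ± 0.14 and Cd80 0.14 ± 0.086 CPM per kilobase. Neighbours in this order differed by less than the larger of their SDs. In raw counts, Cd274 had 66 to 242 and Cd86 had 53 to 327 per library, while Pdcd1 had 0 to 32, Pdcd1lg2 0 to 30, Tigit 3 to 31 and Cd80 2 to 36. A single count corresponded to between 0.020 and 0.035 CPM, and even values made up 65.3% to 77.2% of the counts between 1 and 20 in a library. Mates may thus have been counted separately, so that the number of independent fragments may be smaller than the counts. Intervals on single libraries cover counting error only.

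**Figure D1:**
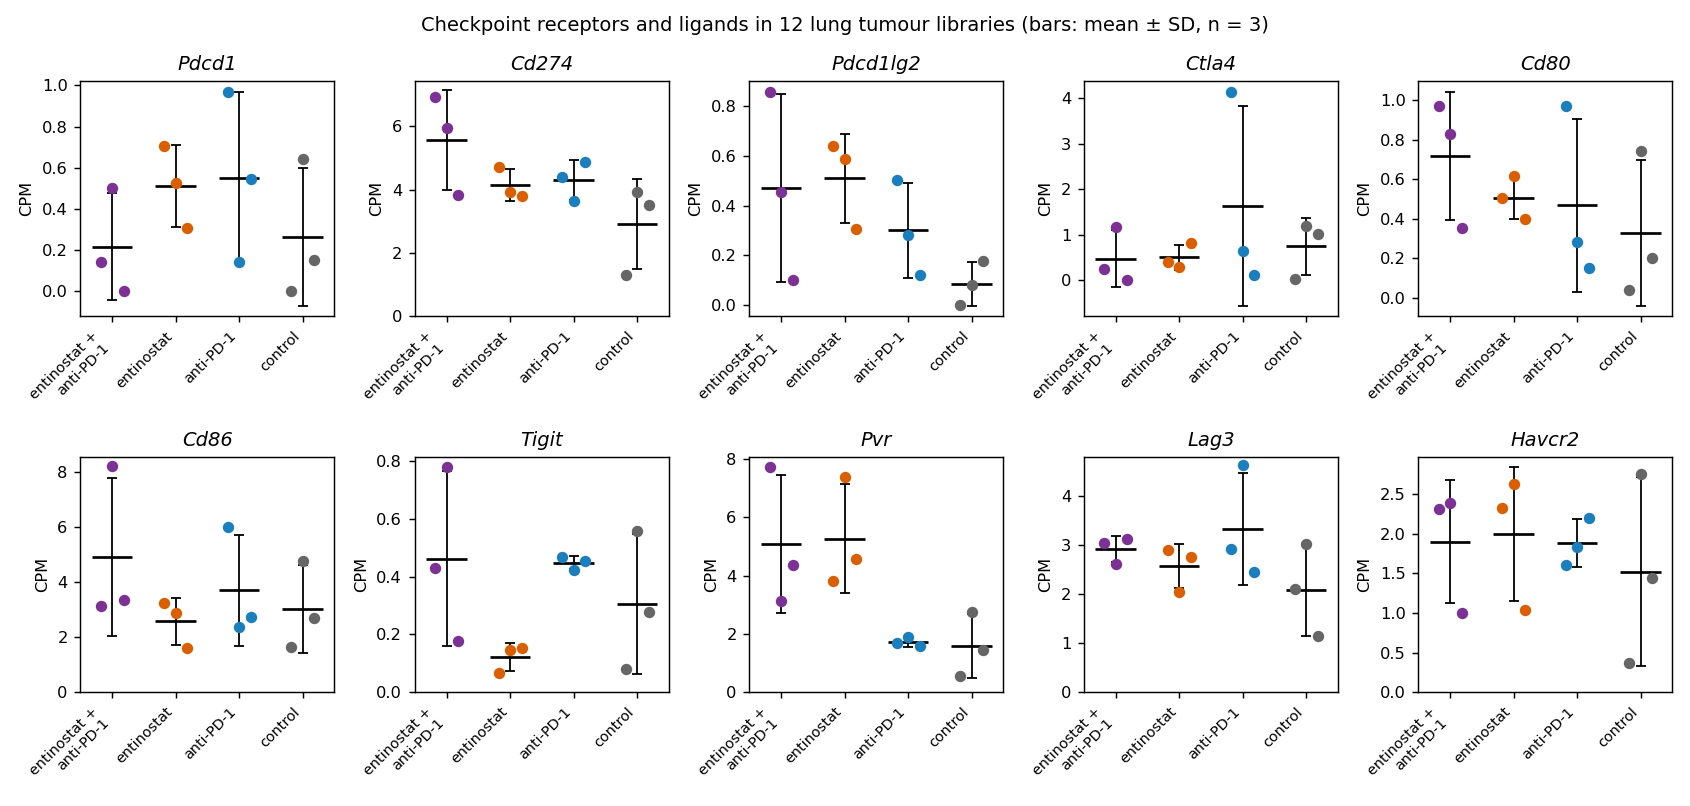
CPM of each gene (vertical axis) in each library, by treatment group, with horizontal lines for the mean and whiskers for ± 1 SD of 3 libraries; axes differ between panels. Pvr is the gene whose 6 libraries with entinostat, at 3.14 CPM or more, all lie above its 6 libraries without, at 2.75 CPM or less.

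Pvr was the gene of the 10 that was called for entinostat over both arms. The intervals of the others do not exclude a change, at 0.96-fold to 9.45-fold for Pdcd1lg2. Pvr had 7.72, 3.14 and 4.37 CPM in the combination libraries and 3.83, 7.38 and 4.58 CPM in the entinostat libraries. It had 1.67, 1.91 and 1.57 CPM in the anti-PD-1 libraries and 0.55, 2.75 and 1.44 CPM in the control libraries. Every library with entinostat was above every library without it. The lowest with the drug, combination library 2, rested on 125 counts (95% exact Poisson interval 2.62 to 3.75 CPM), and the highest without it, control library 2, on 133 counts (2.30 to 3.26 CPM), so these 2 libraries overlap within counting error.

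Taken over both arms, Pvr averaged 5.17 ± 1.91 CPM with entinostat and 1.65 ± 0.71 CPM without (SD, n = 6 each). The fitted rise was 3.13-fold (95% interval 1.72 to 5.72), a log2 fold change of 1.65 (SE 0.40, adjusted p = 0.0287, edgeR quasi-likelihood test with Benjamini-Hochberg adjustment over all 17426 genes). Thus 1 of 10 genes was called for entinostat at an adjusted p under 0.05, and 10.6% of all tested genes were called in this comparison, with 3.87% of all tested genes called as higher. Groups without overlap were found for 4.33% of all genes, 2.01% in the higher direction. The share of these genes called is near that of all genes, and the result is about Pvr and not about the set.

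The Pvr difference was also estimated with and without the antibody. It was 1.73 (log2, SE 0.56, adjusted p = 0.0968) in entinostat against control and 1.56 (SE 0.56, adjusted p = 0.321) in the combination against anti-PD-1. The combination against control, which shares the control libraries, gave 1.68 (SE 0.56, adjusted p = 0.0761). None of these 3 values passed the threshold in edgeR, while DESeq2 called Pvr in both comparisons with control (adjusted p = 0.0182 for entinostat and 0.0175 for the combination), and the groups did not overlap in any of the 3. Higher groups without overlap made up 13.1%, 9.92% and 15.2% of all genes in these comparisons, in the order given. The interaction, the difference between the effect of entinostat with the antibody and without it, was −0.17 (95% interval −1.90 to 1.57, adjusted p = 0.986), which leaves room for differences in either direction. Anti-PD-1 against control gave 0.12 for Pvr (SE 0.57, adjusted p = 0.944).

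The call on Pvr depended on single libraries. It was lost in 6 of 12 fits that left out 1 library, with adjusted p = 0.0778 without combination library 1, 0.0511 without combination library 3, 0.0766 without entinostat library 2, 0.0519 without entinostat library 3, 0.0673 without anti-PD-1 library 1 and 0.0650 without anti-PD-1 library 3. The log2 fold change stayed between 1.43 and 1.98 in these 12 fits. Control library 1 had the lowest level of 6 of the 10 genes, and without it the Pvr rise was 1.44 (adjusted p = 0.0347).

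Markers of other cells also differed between the libraries, and their part in the Pvr result was not tested. Summed levels of 7 fibroblast markers were 528 to 1448 CPM with entinostat against 155 to 815 CPM without, with 7 of 7 means higher. Of these, edgeR called 1 as higher, Pdgfra, which encodes a PDGF receptor, where 10.6% of all genes were called. There were 4 at an unadjusted p under 0.05, against 5068 of all 17426 genes. DESeq2 called 3, Col1a1, Pdgfra and Pdgfrb, against 3342 of the 17137 genes to which it gave an adjusted p. Both counts over all genes also apply to the lists that follow, for entinostat over both arms. In the combination against control edgeR called Pdgfra and Pdgfrb as higher, where 11.7% of all genes were called. Summed levels of 13 alveolar epithelial markers were 88.8 to 680 CPM with entinostat against 60.0 to 511 CPM without, with 11 of 13 means higher and 0 called by edgeR or DESeq2 and 0 at an unadjusted p under 0.05. The 14 macrophage and monocyte markers summed to 254 to 1292 CPM with entinostat against 308 to 672 CPM without, with 11 of 14 means higher and 0 called by edgeR (4 at an unadjusted p under 0.05, 2 called by DESeq2). The 8 pan-leukocyte markers summed to 54.9 to 186 CPM with entinostat against 55.1 to 142 CPM without, with 7 of 8 means higher and 0 called by edgeR (3 at an unadjusted p under 0.05, 2 called by DESeq2). The 12 neuroendocrine tumour markers summed to 525 to 1142 CPM with entinostat against 851 to 1995 CPM without, with 0 of 12 means higher. Uchl1, Scg2 and Calca were called as lower by edgeR (4 at an unadjusted p under 0.05), and DESeq2 called these and Syp. Scg2 and Calca were uncalled in entinostat against control, at −1.10 and −2.07 (log2). In anti-PD-1 against control they were at 1.72 and 1.07, also uncalled. The 3 edgeR calls and that on Pdgfra, each for entinostat over both arms, depended on single libraries. Means higher with entinostat numbered 2 of 11 for T cell, 3 of 10 for dendritic cell, 2 of 6 for B cell and 3 of 9 for airway epithelial markers. They numbered 6 of 10 for cytotoxic and NK cell markers and 6 of 7 for both neutrophil and endothelial markers. In these lists 0 were called by edgeR. At an unadjusted p under 0.05 there were 2 T cell, 1 neutrophil and 1 endothelial markers, and DESeq2 called 1, the endothelial marker Vwf. The T cell markers summed to 23.2 to 30.8 CPM with entinostat against 16.5 to 35.7 CPM without. In bulk tissue, fewer cells of a type and less RNA per cell cannot be told apart. Per 100 counts of Ptprc, the pan-leukocyte gene CD45, Pvr had 6.37 to 48.1 counts with entinostat and 4.28 to 14.4 counts without, so the arms overlapped on this scale.

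TIGIT, the inhibitory receptor for PVR, was barely detected. Tigit had 15, 31 and 7 counts in the combination libraries, 3, 5 and 5 in the entinostat libraries, 14, 12 and 15 in the anti-PD-1 libraries and 4, 27 and 11 in the control libraries. The 3 entinostat libraries and control library 1 were the lowest, and the control libraries ranged from 0.078 to 0.56 CPM. With the antibody Tigit averaged 0.45 ± 0.19 CPM and without it 0.21 ± 0.19 CPM (SD, n = 6 each), a log2 fold change of 1.23 with a 95% interval from −0.04 to 2.50 (adjusted p = 0.469). With entinostat it averaged 0.29 ± 0.27 CPM and without 0.38 ± 0.17 CPM (log2 fold change −0.64, 95% interval −1.91 to 0.63, adjusted p = 0.479). The other genes of this axis, chosen after their values were seen, were the ligand Nectin2, listed by its older symbol Pvrl2, and the T and NK cell receptors Cd226 and Cd96. Pvrl2 had 9.00 to 11.3 CPM with entinostat and 5.32 to 17.0 CPM without, Cd226 had 0.050 to 1.16 CPM with and 0.039 to 1.34 CPM without, and neither was called. Cd96 had at most 10 counts and was not tested.

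Among the genes of the PD-1 axis, the receptor itself was at the edge of detection. Pdcd1 had 5, 20 and 0 counts in the combination libraries, 32, 18 and 10 in the entinostat libraries, 29, 4 and 18 in the anti-PD-1 libraries and 0, 31 and 6 in the control libraries. Taking 3 counts as the limit that a 0 allows, the 0 in combination library 3 allows a level of up to 0.075 CPM and that in control library 1 up to 0.059 CPM. No group stood apart: means were 0.36 ± 0.26 CPM with entinostat and 0.41 ± 0.37 CPM without, and 0.38 ± 0.36 CPM with the antibody and 0.39 ± 0.28 CPM without (SD, n = 6 each). The fitted log2 fold changes were −0.20 (95% interval −2.32 to 1.93) for entinostat and −0.09 (−2.22 to 2.03) for anti-PD-1, so a 3-fold change in either direction lay inside both intervals.

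Cd274, which encodes PD-L1, was the best measured ligand of this axis. It had 6.92, 5.94 and 3.85 CPM in the combination libraries and 4.73, 3.92 and 3.79 CPM in the entinostat libraries. It had 4.41, 3.63 and 4.86 CPM in the anti-PD-1 libraries and 1.29, 3.93 and 3.52 CPM in the control libraries. The 2 highest values were in combination libraries and the lowest was in control library 1, and all groups overlapped. The log2 fold change was 0.44 for entinostat (95% interval −0.23 to 1.11, adjusted p = 0.363) and 0.49 for anti-PD-1 (−0.18 to 1.17, adjusted p = 0.576). For the combination against control it was 0.93 (−0.02 to 1.88, adjusted p = 0.175).

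Pdcd1lg2, which encodes PD-L2, was much lower, with 149 counts over the 12 libraries against 1895 for Cd274. It had 30, 18 and 4 counts in the combination libraries, 29, 20 and 10 in the entinostat libraries, 15, 8 and 4 in the anti-PD-1 libraries and 0, 4 and 7 in the control libraries. All 3 entinostat libraries were above all 3 control libraries, while the combination overlapped with control. The log2 fold change was 2.55 in entinostat against control (SE 1.09, adjusted p = 0.184), 2.43 in the combination against control (SE 1.09, adjusted p = 0.163) and 1.59 for entinostat over both arms (95% interval −0.06 to 3.24, adjusted p = 0.185). None passed the threshold. A higher group without overlap was found for 13.1% of all genes in entinostat against control, and the values rest on counts that include 0 in control library 1, where up to 0.059 CPM is allowed. In the GENCODE annotation the antisense gene AC119228.1 overlaps exons of Cd274, and use of strand in the counting is not stated, so reads of this pair cannot be told apart where they overlap. The antisense gene A930007I19Rik, with 16 to 74 counts, overlaps Pdcd1lg2 without shared exon sequence. The same holds for Gm16184 and Gm16251, on the opposite strand of Pvr, and for the pseudogene Rpl18-ps1, which overlaps Ctla4.

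The genes of both PD-1 ligands lie next to each other on chromosome 19, and both had their highest level in combination library 1 and their lowest in control library 1. Their log2 CPM correlated with r = 0.78 over the 12 libraries, which share depth and cell content, as a description. Cd80 on chromosome 16 and Pvr on chromosome 7 had their highest and lowest levels in the same libraries, and Cd274 correlated with Havcr2 at 0.83 and with Cd80 at 0.78. The promoter windows of both ligand genes are shown because they encode the ligands of the receptor that the antibody binds. The windows run from 250 bases before to 50 bases after the start of each gene in RefSeq's table for GRCm38.p6, a later build than the mm9 named in the submitters' processing notes, at chr19:29367188-29367487 for Cd274 and chr19:29410669-29410968 for Pdcd1lg2, both on the plus strand. Capitals mark the GC box.
Cd274: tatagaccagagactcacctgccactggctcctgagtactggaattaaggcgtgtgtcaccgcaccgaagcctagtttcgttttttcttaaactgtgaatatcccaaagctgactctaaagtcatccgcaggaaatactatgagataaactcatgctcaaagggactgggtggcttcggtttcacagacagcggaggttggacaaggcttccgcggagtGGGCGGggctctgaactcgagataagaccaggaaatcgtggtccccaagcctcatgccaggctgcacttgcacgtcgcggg
Pdcd1lg2: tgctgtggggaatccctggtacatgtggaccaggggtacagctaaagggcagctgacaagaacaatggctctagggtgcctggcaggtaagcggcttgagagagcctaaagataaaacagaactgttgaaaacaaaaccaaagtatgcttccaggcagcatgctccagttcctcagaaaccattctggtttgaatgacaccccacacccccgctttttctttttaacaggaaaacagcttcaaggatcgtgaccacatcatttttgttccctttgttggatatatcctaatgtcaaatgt

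Windows were matched by symbol for 7 of the 10 genes, and Lag3, Cd86 and Pvr had none in the table. Each window was searched on both strands for the GC box GGGCGG, found in 35.7% of all 32851 windows, for a pair of GAAA half-sites separated by 2 bases, the core of an interferon regulatory factor element, found in 3.44%, and for TTCNNNGAA, the core of a STAT site, found in 8.3%. The GC box occurred once in the Cd274 window, starting at −31 from the start site, and once in the Pdcd1 window, at −77. The Pdcd1lg2, Ctla4, Havcr2, Tigit and Cd80 windows held none of the 3 motifs, and neither of the other motifs was in the Cd274 or Pdcd1 window.

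Interferon gamma is an inducer of the PD-1 ligands, and its response was examined as a list of 20 genes that holds transducers of the signal and other target genes, of which 18 were tested. Stat3, a transcription factor of cytokine signalling, rose with entinostat, to 71.2 ± 11.2 CPM with the drug against 36.1 ± 7.73 CPM without (SD, n = 6 each; log2 fold change 0.99, SE 0.15, adjusted p = 0.00754). For entinostat over both arms edgeR called 1 of 18, Stat3, where 10.6% of all genes were called. An unadjusted p under 0.05 was found for 3 of 18, against 5068 of all 17426 genes. DESeq2 called 3, Stat3, Irf1 and Socs1, which encodes a suppressor of cytokine signalling, against 3342 of 17137 genes. The median log2 fold change of the 18 was 0.12 for entinostat over both arms, with 12 of 18 positive. It was −0.17 in entinostat against control, with 7 of 18 positive, and 0.60 in the combination against control, with 14 of 18 positive. In the combination against control, edgeR called Stat3 and Irf1 as higher and 0 of 18 as lower, where 11.7% of all genes were called. DESeq2 called the same 3 genes as for entinostat, against 3607 of 17555 genes. Irf1, an interferon regulatory factor that acts on the Cd274 gene, had 11.5, 15.6 and 13.5 CPM in the combination libraries and 5.23, 6.13 and 6.12 CPM in the control libraries (log2 fold change 1.22, SE 0.34, adjusted p = 0.0424). The call on Irf1 held in 3 of 12 fits without 1 library, those without entinostat library 1, entinostat library 3 or anti-PD-1 library 3, and that on Stat3 held in 12 of 12 in both comparisons. Ifng itself, which encodes interferon gamma, had 0 counts in every library of the 3 treated groups, where 3 counts would be 0.066 to 0.106 CPM. The control libraries were not all at 0 for Ifng.

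In the CTLA-4 and B7 axis, Ctla4 was highest in a single library and low in the rest. It had 9, 47 and 0 counts in the combination libraries, 18, 10 and 27 in the entinostat libraries, 124, 18 and 4 in the anti-PD-1 libraries and 2, 58 and 40 in the control libraries. The value of 4.14 CPM in anti-PD-1 library 1 was the highest, and the next was 1.20 CPM in control library 2. Ctla4 averaged 0.49 ± 0.43 CPM with entinostat and 1.19 ± 1.52 CPM without (SD, n = 6 each; log2 fold change −1.16, 95% interval −3.43 to 1.11, adjusted p = 0.481). For anti-PD-1 the log2 fold change was 0.53 (−1.74 to 2.80, adjusted p = 0.880), and it was −0.53 without anti-PD-1 library 1. B cell markers were also highest in that library: the 6 of them summed to 34.5 CPM there, against 1.62 to 25.4 CPM in the other libraries. Their part in the Ctla4 value was not tested.

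Of the B7 ligands of CTLA-4 and CD28, Cd86 was the higher per kilobase. This ligand of macrophages, dendritic cells and B cells had 3.12, 8.22 and 3.37 CPM in the combination libraries and 3.25, 2.87 and 1.62 CPM in the entinostat libraries. It had 6.02, 2.36 and 2.72 CPM in the anti-PD-1 libraries and 1.64, 4.78 and 2.68 CPM in the control libraries. High libraries were found in 3 of the 4 groups, and the log2 fold change was 0.09 for entinostat (95% interval −0.80 to 0.97, adjusted p = 0.906) and 0.60 for anti-PD-1 (−0.28 to 1.49, adjusted p = 0.602). Cd80, the ligand with the higher affinity for CTLA-4, had 34, 33 and 14 counts in the combination libraries, 23, 21 and 13 in the entinostat libraries, 29, 8 and 5 in the anti-PD-1 libraries and 2, 36 and 8 in the control libraries. Its log2 fold change was 0.62 for entinostat (−0.86 to 2.09, adjusted p = 0.569) and 0.50 for anti-PD-1 (−0.98 to 1.98, adjusted p = 0.814). The arms overlapped, at 0.35 to 0.97 CPM with entinostat and 0.039 to 0.97 CPM without.

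Lag3 was the receptor with the highest level per kilobase. It had 3.03, 2.62 and 3.12 CPM in the combination libraries and 2.90, 2.05 and 2.75 CPM in the entinostat libraries. It had 2.91, 4.62 and 2.45 CPM in the anti-PD-1 libraries and 2.09, 3.02 and 1.14 CPM in the control libraries. The values of the groups overlapped, and the intervals of its log2 fold changes were the narrowest of the 10 genes after those of Cd274, at −0.63 to 0.74 around 0.06 for entinostat (adjusted p = 0.922) and −0.26 to 1.11 around 0.43 for anti-PD-1 (adjusted p = 0.630). A rise of more than 1.67-fold with entinostat lay outside the 95% interval, while a 2-fold rise with anti-PD-1 lay inside it.

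Havcr2, which encodes TIM-3, had 2.32, 2.39 and 1.01 CPM in the combination libraries and 2.33, 2.64 and 1.04 CPM in the entinostat libraries. It had 1.60, 1.83 and 2.21 CPM in the anti-PD-1 libraries and 0.37, 2.75 and 1.44 CPM in the control libraries. Low and high libraries occurred within the combination, entinostat and control groups alike. The log2 fold change was 0.21 for entinostat (95% interval −0.83 to 1.24, adjusted p = 0.801) and 0.12 for anti-PD-1 (−0.92 to 1.15, adjusted p = 0.950).

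**Figure D2:**
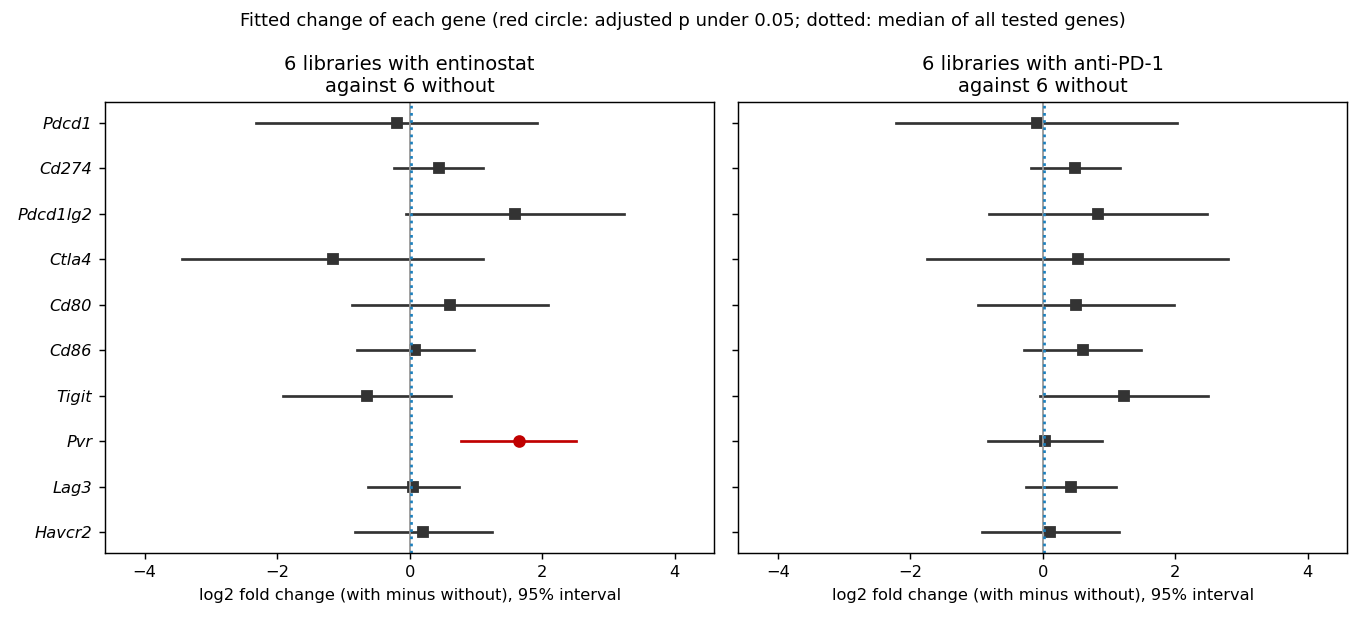
Log2 fold change of each gene (squares, or a circle where the adjusted p was under 0.05) with its 95% interval as a horizontal line, for the 6 libraries with entinostat against the 6 without (left) and the 6 libraries with anti-PD-1 against the 6 without (right). Pvr at 1.65 on the left is the single called gene, and the intervals of the other 9 genes on the left and of all 10 on the right include 0.

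For the antibody, 0 of 10 genes were called by edgeR, where 0% of all 17426 genes were. At an unadjusted p under 0.05 there were 0 of the 10, against 1886 of all genes, and DESeq2 called 0 of the 4 genes to which it gave an adjusted p, against 58 of all genes. The median log2 fold change of the 10 genes was 0.50, with 9 of 10 positive. Over all tested genes the median was 0.02, with 9067 of 17426 positive. The median of the 10 genes was 0.24 without anti-PD-1 library 1, 0.28 without control library 1 and 0.80 without control library 2. Also positive for the antibody were 7 of 8 pan-leukocyte, 8 of 10 T cell, 6 of 6 B cell and 11 of 14 macrophage and monocyte markers. Of neuroendocrine tumour markers 3 of 12 were positive, and of airway epithelial markers 3 of 8. For entinostat the median of the 10 genes was 0.15, with 7 of 10 positive, against 0.02 over all genes, with 8943 of 17426 positive. Fits without 1 library gave 0.015 without control library 1, where the median of all genes was 0.043, to 0.58 without control library 2, so the median of the 10 genes rested on single libraries. In entinostat against control edgeR called 0 of 10, where 5.27% of all genes were called, and in the combination against control 0 of 10, where 11.7% were. In both, Pvr and Pdcd1lg2 had an unadjusted p under 0.05, against 4259 and 5266 of all 17426 genes. DESeq2 called Pvr in both, of the 8 and 10 of these genes to which it gave an adjusted p. Over all genes it called 2330 of 16308 and 3607 of 17555, in the same order. In anti-PD-1 against control 0 of 10 were called, where 0.00574% of all genes were. At an unadjusted p under 0.05 there were 0 of 10, against 2691 of all genes. DESeq2 called 0 of the 7 to which it gave an adjusted p, against 567 of 15887 genes. In the combination against anti-PD-1 and in the interaction 0 of 10 were called by either tool. Over all genes edgeR called 0% in both, and DESeq2 called 422 and 52 of 16718, in this order. Pvr in the first was the single one of the 10 with an unadjusted p under 0.05, against 2168 of all 17426 genes.

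The wider family of checkpoint and costimulatory genes was examined as a list of 37 further genes, of which 36 were in the table and 30 were tested. In each of the 7 comparisons 0 of 30 were called by edgeR, where 0% to 11.7% of all genes were, with 0 to 5 at an unadjusted p under 0.05 and 0 or 1 called by DESeq2. For entinostat 21 of 30 had a positive log2 fold change with a median of 0.28, and 5 of 30 had an unadjusted p under 0.05, against 5068 of all 17426 genes. DESeq2 called Cd200r1 for entinostat over both arms and in the combination against control, and Ceacam1 in entinostat against control. Over all genes it called 3342 of 17137, 3607 of 17555 and 2330 of 16308 in these comparisons, in the order given. For anti-PD-1 24 of 30 were positive with a median of 0.25, and 1 of 30 had an unadjusted p under 0.05, against 1886 of all genes. The 4 genes of this list with the highest level per kilobase were Cd276, which encodes B7-H3, the CD47 receptor gene Sirpa, Cd47, which encodes a signal against phagocytosis, and Cd200, which encodes a ligand that restrains myeloid cells. Cd276 averaged 9.07 CPM per kilobase with entinostat and 8.23 without, and Sirpa averaged 8.15 with it and 6.27 without. Cd47 averaged 5.33 CPM per kilobase with entinostat and 8.00 without, and Cd200 averaged 5.07 with it and 6.86 without. Each of these 4 was higher per kilobase than each of the 10 genes.

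Of 12 genes that transmit PD-1 and CTLA-4 signals, edgeR called 1 as lower with entinostat and 0 as higher, where 10.6% of all genes were called. DESeq2 called 3, Grb2, Fyn and Csk, against 3342 of 17137 genes. The median log2 fold change of the 12 was −0.43, with 2 of 12 positive. In the combination against control edgeR called 2 as lower, Grb2 (adjusted p = 0.0299) and Ppp2ca (adjusted p = 0.0493), where 11.7% of all genes were called. Grb2, an adaptor used by many receptors in most cells, fell to 31.7 ± 5.08 CPM with entinostat, against 49.5 ± 15.8 CPM without (SD, n = 6 each; log2 fold change −0.61, SE 0.17, adjusted p = 0.0436). This call held in 4 of 12 fits without 1 library, those without combination library 2, anti-PD-1 library 2, control library 2 or control library 3. Of 6 regulatory T cell genes, 4 were tested, Ctla4 among them, and Ikzf2, a transcription factor also expressed outside T cells, rose to 8.09 ± 2.90 CPM with entinostat, against 2.59 ± 1.43 CPM without (log2 fold change 1.70, SE 0.37, adjusted p = 0.0208). This call was lost without combination library 1 (adjusted p = 0.0573) and without entinostat library 2 (adjusted p = 0.0566). The other 3 were not called. Of the 4, 2 had a positive log2 fold change for entinostat over both arms, and Ctla4 was at −1.16. Foxp3 was at −0.51 in entinostat against control and at 0.18 in the combination against anti-PD-1.

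Levels of leukocyte markers varied within groups. Ptprc had 1050, 1961 and 362 counts in the combination libraries, 1724, 783 and 589 in the entinostat libraries, 1167, 521 and 362 in the anti-PD-1 libraries and 243, 1317 and 536 in the control libraries. It was lowest in control library 1, where Cd274, Pdcd1lg2, Havcr2, Cd80 and Pvr were also lowest and Pdcd1 was at 0. Cd3e, a subunit of the T cell receptor complex, had 0 to 17 counts and was at 0 in 5 of 12 libraries, and Cd8a had 7 to 52 counts. The 11 T cell markers together summed to 16.5 to 35.7 CPM. Foxp3, the transcription factor of regulatory T cells, had 266 to 1262 counts and Cd4 30 to 242 counts, and both were highest in control library 1, where Cd3e was at 0. Over the 12 libraries the log2 CPM of Cd80 correlated with that of Ptprc at r = 0.90, Pdcd1lg2 at 0.82, Pdcd1 and Havcr2 at 0.77, Cd274 at 0.76, Ctla4 at 0.72 and Cd86 at 0.71, while Pvr stood at 0.53, Tigit at 0.45 and Lag3 at 0.28. These are descriptions over libraries that differ in treatment and in cell content.

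**Figure D3:**
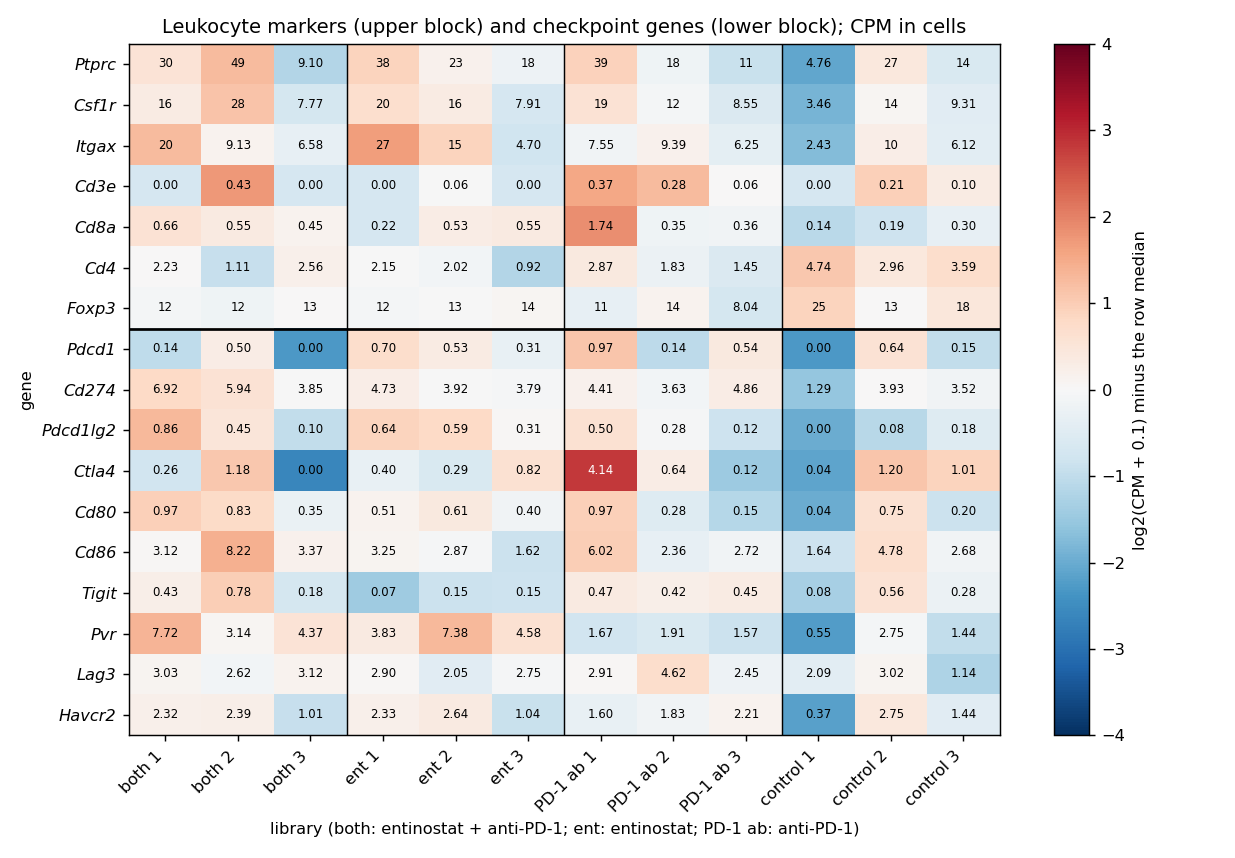
CPM (numbers in cells) of 7 leukocyte markers above the line and the 10 checkpoint genes below it, in the 12 libraries; the colour is log2(CPM + 0.1) minus the row's median. In control library 1 Ptprc, Csf1r, Itgax and 6 of the 10 checkpoint genes are at their lowest, and Pvr is the row with higher values in both entinostat blocks.

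The genes whose log2 CPM was most like that of each checkpoint gene over the 12 libraries were listed by Pearson correlation. For Pvr they were Vill (r = 0.97), Zbtb7b (0.96) and Eps8l1 (0.95). For Cd274 they were Birc3 (0.96), Mir147 (0.95) and AA467197 (0.94), and for Pdcd1lg2 Emilin2 (0.95), Myd88 (0.94) and Zc3h12a (0.94). Havcr2 was most like Cd14 (0.97), Gpx3 (0.95) and Sdc4 (0.95), Cd80 like Fxyd5 (0.97), Adgrf2 (0.97) and Ptpn7 (0.95), and Cd86 like Irf8 (0.92), Zfp831 (0.91) and Ptpn18 (0.88). Ctla4 was most like Blk (0.93) and Cd79b (0.93), of which Cd79b was on the B cell list above. Pdcd1 was most like Ifit1bl1 (0.92), Cytip (0.92) and Sirpb1b (0.89), Lag3 like Csad (0.91), Cdhr1 (0.90) and Prtg (0.88), and Tigit like St8sia6 (0.88), Pnpla2 (0.87) and Phka1 (0.87). These are the highest correlations among all tested genes over 12 points, and counting error is not separated in them.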

How the data were processed

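RNA-seq libraries were made with poly(A) selection from frozen, dissected tumour, per the labels' protocols. The authors deposited 1 table of raw read counts, with genes in rows and the 12 libraries in columns; the labels name TPMCalculator as its source. The submitters' processing notes name STAR 2.5.4a, Trimmomatic 0.36, Trim Galore, R 3.5.1 with DESeq2 1.22.2, and build mm9. Strand setting, annotation and treatment of read mates are not stated in the sources used here. Libraries were grouped by title; for the combination, titles give both agents and the treatment tag gives just anti-PD-1. All carry the batch label 2.

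The analysis used edgeR 4.0.16 (R 4.3.3). After filterByExpr, counts were scaled by TMM factors and fitted with a mean for each of 4 groups on all 12 libraries, and the robust quasi-likelihood F test was run on 7 comparisons, adjusted by Benjamini-Hochberg over 17426 genes with a threshold of 0.05. A main effect is the mean of a treatment's effects with and without the other agent. Standard errors and 95% t intervals use the moderated spread; log2 CPM uses a prior count of 2. A count of 0 is given an upper limit of 3 counts. Exon lengths are unions of GENCODE M21 exons, and promoter windows are from RefSeq.

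Alternatives were upper quartile and RLE factors, DESeq2 1.42.0, no filter, halved counts, the replicate number as a block, and leaving out each library. The members and lists were chosen with earlier results of these data known. The named genes are the 10 members, up to 4 called genes of each list, the 4 of the wider list highest per kilobase and the 3 genes most like each member, skipping predicted genes and receptor segments; not all of them are given here. Nectin2, Nectin3 and Vsir were matched by older symbols, and Pvrig, Trbc2 and Ly6g were not matched. Replicate numbers come from the titles. The most alike of 66 library pairs still differed by more than sampling noise (a chi-square of 33.5 for each degree of freedom). The procedure was tested on simulated counts before use. Of the reads, 7.84% to 36.4% per library were from Rpph1, Rn45s and Rmrp, structural RNAs. The share was 7.84% to 13.2% in control and 15.2% to 19.3% in entinostat libraries. It was 17.7% to 18.0% in combination and 20.5% to 36.4% in anti-PD-1 libraries. Every treated library was thus above every control library, and the part of this share in the comparisons was not tested.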

Additional observations from a re-analysis of the deposited data

Results flagged for a closer look

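Within each arm of 6 libraries, a library was marked where its gap to the nearest other library was large against the whole range of the arm (Dixon's criterion at 95%, 40 checks, of which chance marks about 1 in 20). Ctla4 at 4.14 CPM in anti-PD-1 library 1 stood above the other libraries with the antibody (next 1.18 CPM) and above the other libraries without entinostat (next 1.20 CPM). Lag3 at 4.62 CPM in anti-PD-1 library 2 stood above the other libraries with the antibody (next 3.12 CPM). Cd86 at 8.22 CPM in combination library 2 stood above the other libraries with entinostat (next 3.37 CPM). Cd274 at 1.29 CPM in control library 1 stood below the other libraries without the antibody (next 3.52 CPM). The marker levels of these libraries differed as well: Ptprc was at 1961 counts, its highest, in combination library 2, and at 243 counts, its lowest, in control library 1, and the 6 B cell markers summed to 34.5 CPM, their highest, in anti-PD-1 library 1. Their part in these values was not tested. Structural RNAs took their largest share, 36.4% of the counts, in anti-PD-1 library 2.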

How the results depend on the processing

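The rise of Pvr with entinostat kept its direction in all 18 alternatives and its call in the 6 that kept every library, at adjusted p = 0.0295 with upper quartile factors, 0.0289 with RLE factors, 0.0320 with no filter, 0.0271 with halved counts and 0.000696 with DESeq2. Leaving out single libraries gave 0 to 1 called genes for entinostat over both arms, with Pvr at 1.43 to 1.98. For the combination against control such fits gave 0 to 1 called, Pvr being called without control library 2. DESeq2 called 1 gene, Pvr, in entinostat against control (adjusted p = 0.0182) and 1, Pvr, in the combination against control (adjusted p = 0.0175). The 6 libraries with entinostat stayed above the 6 without under the other scalings, the lowest with it at 3.27 and the highest without at 2.61 CPM with upper quartile factors. Deviations of same-numbered libraries from their group means correlated at a mean of −0.015 (18 pairs, −0.29 to 0.23), so the shared numbers were not taken to pair the libraries. With the replicate number as a block, Pvr rose by 1.71 (adjusted p = 0.0491). Irf1 lost its call in the combination against control (adjusted p = 0.0789). For entinostat over both arms, Grb2, Pdgfra, Scg2 and Calca lost their calls (adjusted p = 0.0812, 0.0874, 0.0764 and 0.0565), and Stat3, Ikzf2 and Uchl1 kept theirs. Counts over all genes fell to 974 for entinostat, to 321 for entinostat against control and to 1087 for the combination against control. Irf1 was also lost with no filter (adjusted p = 0.0612) and Grb2 with upper quartile factors (adjusted p = 0.0797). Of 12 fits without 1 library, the marker calls for entinostat over both arms held in 7 for Uchl1, 3 for Scg2, 3 for Calca and 2 for Pdgfra.

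Uncalled log2 fold changes that changed sign when a library was left out ranged, for entinostat, from −0.99 to 0.71 for Pdcd1, −0.092 to 0.24 for Lag3, −0.027 to 0.58 for Havcr2 and −0.21 to 0.35 for Cd86. For anti-PD-1 they ranged from −0.89 to 0.81 for Pdcd1, −0.53 to 0.82 for Ctla4, −0.12 to 0.49 for Havcr2, −0.058 to 1.22 for Cd80 and −0.18 to 0.37 for Pvr. For Pvr they ranged from −0.29 to 0.79 in anti-PD-1 against control and from −0.84 to 0.24 for the interaction. The cause was not tested.

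Counts over all genes moved with the tool: DESeq2 called 3342 genes for entinostat against 1849 by edgeR, 2330 against 919 in entinostat against control and 3607 against 2033 in the combination against control. Upper quartile factors moved the median of all genes for entinostat from 0.02 to 0.15 and the calls from 674 higher of 1849 to 1046 higher of 1678, and gave 561 calls, 325 of them higher, in entinostat against control, where TMM factors gave 226 higher of 919, and 1711 calls, 1100 of them higher, in the combination against control, where TMM factors gave 677 higher of 2033. Pvr, at 1.76 with upper quartile factors, lay above that shifted median. Counting error was large for Pdcd1, Pdcd1lg2, Tigit and Cd80, with at most 36 counts in any library, but libraries of a group also differed beyond it: for Pdcd1 the 95% exact Poisson interval reached up to 0.072 CPM in control library 1 and began at 0.44 CPM in control library 2.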
